A study of Homo sapiens with 8 samples.

Results

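Pancreatic ductal adenocarcinoma is divided by its RNA into a classical and a basal-like subtype, and 9 genes commonly used as classical markers were followed here in the established human tumour line Panc10.05, which comes from the pancreas. The 9 genes (GATA6, HNF4A, TFF1, TFF2, LYZ, AGR2, CEACAM5, CEACAM6 and CLDN18) were chosen by name and were found by their Ensembl identifiers among the 60675 genes listed for each library. RNA had been sequenced from 8 libraries in 4 groups of 2. Parental cells were left untreated or were given 2 µM indisulam for 18 h, and a derivative that had acquired resistance to indisulam was kept continuously on 2 µM indisulam or was sampled as resistant untreated cells after a week without the drug. Indisulam is a molecular glue that brings the splicing factor RBM39 to the E3 ubiquitin ligase receptor DCAF15, after which RBM39 is degraded. The resistant line, 1 derivative selected by rising doses over months, was the only one sequenced, so that resistance cannot be told apart from other changes made in that time. Exposure also differed between the lines: 18 h in parental cells, and continuous culture on the drug against a week of withdrawal in resistant cells. A difference between the responses of the lines cannot be told apart from this difference in exposure. For resistant cells, a rise or fall with the drug below means the level on the drug against that after withdrawal. The libraries are called technical replicates in the study, and the p-values below therefore measure the spread between libraries only. The labels of the growth and treatment notes name another line, A549, while sample titles give Panc10.05, and the titles were followed.

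In the pancreas and in tumours derived from it, the classical programme resembles the foregut endoderm and the mucus-forming epithelium that grows from it. Its upper tier consists of transcription factors that open and maintain endodermal genes, above all GATA6, a zinc-finger factor that binds GATA motifs, and HNF4A, an orphan nuclear receptor. Its lower tier consists of the products of differentiated glands: the trefoil peptides TFF1 and TFF2, which are secreted with mucus; LYZ, the antibacterial enzyme lysozyme; AGR2, a protein disulfide isomerase of the endoplasmic reticulum needed to fold mucins; the adhesion glycoproteins CEACAM5 and CEACAM6; and CLDN18, a claudin of gastric tight junctions. Basal-like tumours have low levels of this programme and express keratins and other genes of squamous epithelium instead.

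The data went against the name of the set as a description of this line. Of the 9 genes only GATA6 was read at more than 29 reads in any library, and 6 of the 9 never had more than 4 reads, at depths of 65266253 to 108002436 reads assigned to genes per library. GATA6 supplied 94.9% of all reads of the 9 genes, with 91.7% in the lowest and 98.9% in the highest library. The other 8 genes together had 27 and 24 reads in parental cells off the drug and 11 and 16 on it, and 4 and 7 reads in resistant cells off the drug and 22 and 43 on it. In these libraries the set was therefore made up of GATA6 at a low level, traces of AGR2 and TFF1, and 6 genes at 4 reads or fewer.

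**Figure D1:**
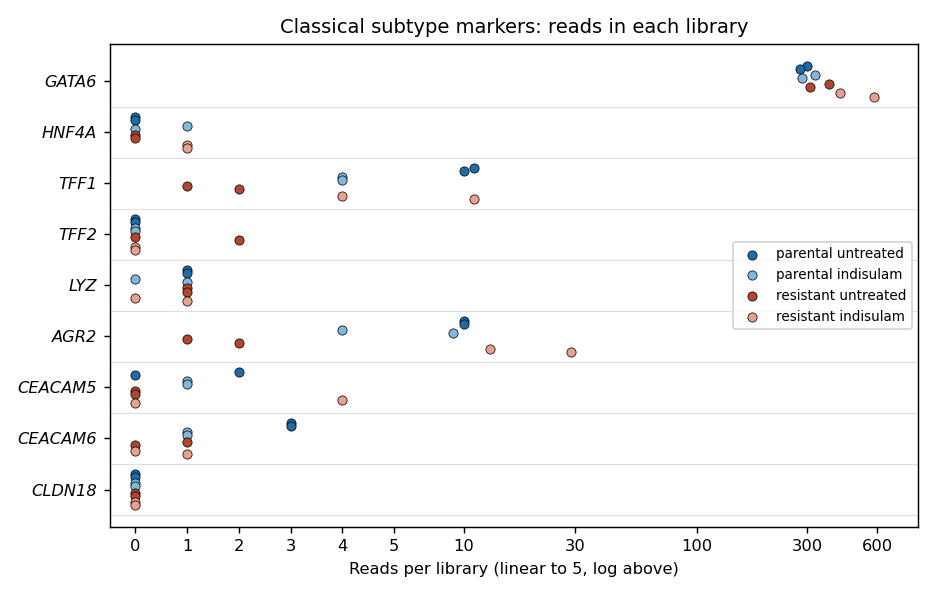
Reads of each of the 9 genes in each of the 8 libraries, with 1 point per library coloured by group; the horizontal axis is linear up to 5 reads and logarithmic above. GATA6 lies between 279 and 581 reads, AGR2 and TFF1 between 1 and 29, and the other 6 genes at 4 reads or fewer.

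Promoter sequence is shown for both genes that had enough reads to be tested, GATA6 and AGR2, and for HNF4A, whose window holds a GATA motif although the gene was at 0 or 1 read. Each sequence is the 250 bases before the RefSeq transcription start on the GRCh38.p14 assembly, written 5′ to 3′ on the strand of the gene, and capitals mark AGATAA or its reverse complement TTATCT, a form of the motif bound by GATA factors.
GATA6, chr18:22169339-22169588, plus strand: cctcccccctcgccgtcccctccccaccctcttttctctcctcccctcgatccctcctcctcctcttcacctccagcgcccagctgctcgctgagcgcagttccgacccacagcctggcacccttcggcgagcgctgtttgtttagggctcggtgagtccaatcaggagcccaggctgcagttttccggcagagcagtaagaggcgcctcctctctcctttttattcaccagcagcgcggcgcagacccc
HNF4A, chr20:44355449-44355698, plus strand: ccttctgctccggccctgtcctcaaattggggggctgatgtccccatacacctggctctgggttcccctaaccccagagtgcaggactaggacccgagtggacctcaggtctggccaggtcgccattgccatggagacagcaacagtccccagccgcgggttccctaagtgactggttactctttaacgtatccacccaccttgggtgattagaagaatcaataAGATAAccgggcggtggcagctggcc
AGR2, chr7:16805000-16805249, minus strand: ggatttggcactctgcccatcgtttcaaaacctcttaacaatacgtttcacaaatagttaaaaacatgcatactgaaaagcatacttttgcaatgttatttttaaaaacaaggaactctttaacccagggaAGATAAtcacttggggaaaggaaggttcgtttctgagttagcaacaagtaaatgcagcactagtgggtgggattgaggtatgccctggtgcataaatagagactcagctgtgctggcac
The HNF4A and AGR2 windows each hold the motif once, and the GATA6 window, which overlaps an exon of the lncRNA GATA6-AS1 on the opposite strand, does not hold it. RefSeq windows were matched for 6 of the 9 genes, 8 windows in all. 3 of these 8 windows held the motif on either strand, the third being 1 of the windows of CLDN18 with 2 copies, against 3219 of all 35116 promoter windows (9.17%). The second HNF4A window, that of CEACAM5, that of CEACAM6 and the second window of CLDN18 do not hold these letters, and no window was given for TFF1, TFF2 and LYZ. A match of 6 letters is a description of the sequence and not a binding site.

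The libraries resembled each other closely within groups, with Pearson's r of log2 CPM (the usual count scaled to library size, here with TMM factors) between 0.996 and 0.998. Markers checked the labelled origin. All 8 epithelial markers passed the filter on low counts, with a summed level of 6257 to 6509 CPM in parental and 9952 to 11423 CPM in resistant libraries; the part of this difference between the lines in the results below was not tested. Of 7 fibroblast markers 1 passed the filter (COL1A1, a collagen chain), and the summed level was 1.35 to 1.92 CPM in the groups other than resistant indisulam and 3.98 to 4.06 CPM there, while DCN and LUM were at 0. The leukocyte markers summed to 0.247 to 0.445 CPM, with PTPRC and CD3E at 0 in every library. LYZ, which is also a marker of myeloid leukocytes, gave at most 1 read. Acinar markers reached at most 0.0462 CPM, with CPA1, CELA3A and PNLIP at 0, and of 5 endocrine markers INS, GCG, SST and CHGA were at 0 while SYP, a protein of synaptic vesicles, passed the filter with 43 to 138 reads and 0.574 to 1.45 CPM. In a bulk library, fewer cells with a transcript and less transcript per cell cannot be told apart.

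GATA6 (ENSG00000141448, chromosome 18, 22169589 to 22202528, plus strand) was higher on indisulam than off it in both lines, and higher in resistant than in parental cells. Its reads were 300 and 279 in parental cells off the drug and 322 and 285 on it, and 373 and 307 in resistant cells off the drug and 414 and 581 on it. Scaled for library size by the TMM method, the levels of GATA6 were 2.74 and 2.61 CPM in untreated and 4.29 and 3.68 CPM in treated parental libraries, and 5.04 and 4.73 CPM in untreated and 6.14 and 6.04 CPM in treated resistant libraries. The order of GATA6 from lowest to highest was parental cells off and then on the drug, followed by resistant cells off and then on it. No pair of groups overlapped, but how many of all genes separate groups of 2 libraries in this way was not counted. The group means were 2.68 ± 0.0920, 3.99 ± 0.435, 4.88 ± 0.218 and 6.09 ± 0.0702 CPM (SD, n = 2 each) in that order. The step between parental indisulam and resistant untreated, where both line and drug change, was not tested.

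In parental cells indisulam raised GATA6 by 0.57 on the log2 scale (SE 0.093, 95% interval 0.38 to 0.77, adjusted p = 1.3e-05 by edgeR's quasi-likelihood test). In resistant cells GATA6 was 0.32 higher on the drug than off it (SE 0.085, interval 0.14 to 0.49, adjusted p = 0.0032 by edgeR). Off the drug GATA6 was 0.87 higher in resistant cells, a week after withdrawal, than in parental cells (SE 0.091, interval 0.68 to 1.06, adjusted p = 1.4e-08 by edgeR). On the drug GATA6 was 0.61 higher in resistant cells (SE 0.086, interval 0.43 to 0.79, adjusted p = 1.1e-06 by edgeR). The responses of the lines to the drug were not shown to differ: the difference, resistant minus parental, was −0.26 (SE 0.13, interval −0.52 to 0.0034, adjusted p = 0.094 by edgeR). It passed the threshold without parental indisulam replicate 2 (−0.35, adjusted p = 0.042 by edgeR). Changes of this kind were common in these libraries. With the same rule 58.2% of the 16661 tested genes differed between parental indisulam and parental untreated, 50.7% between resistant indisulam and resistant untreated, 60.1% between resistant and parental untreated, and 69.5% between the lines on the drug, and 50.1% differed in the response itself. The 4 comparisons share their libraries in pairs. Tested against a change of 0.5 rather than of 0, by edgeR's glmTreat, the untreated difference between the lines remained called (adjusted p = 0.00048), and the other 3 changes of GATA6 did not (adjusted p = 0.59, 1 and 0.14, in the order given above).

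**Figure D2:**
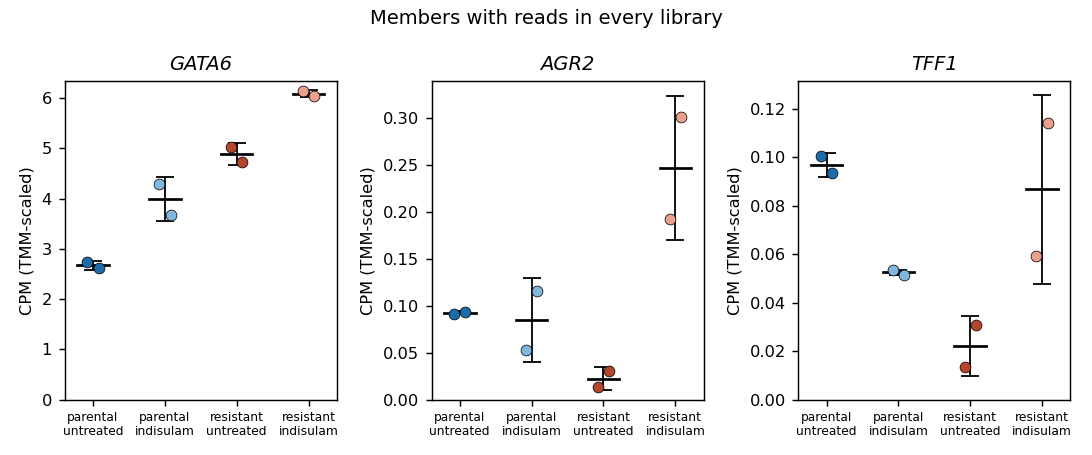
Level in CPM (linear axes from 0, TMM-scaled) of the 3 genes with reads in every library, with 1 point per library, the group mean as a long bar and ± 1 SD (n = 2) as whiskers. GATA6 rises from 2.61 to 6.14 CPM across the groups, and AGR2 and TFF1 are lowest in resistant untreated cells, at 0.0135 and 0.0308 CPM for both.

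The level of GATA6 was low in absolute terms. Per kilobase of exon its mean over the 8 libraries was 1.16 CPM, a level below which 38.6% of the tested genes lay. Its relative GATA4, a factor of the same family that also acts in foregut endoderm, was at 5.69 ± 0.00663 CPM per kb in parental untreated and 6.52 ± 0.182 CPM per kb in resistant indisulam cells (SD, n = 2), where GATA6 was at 0.704 ± 0.0242 and 1.60 ± 0.0185 CPM per kb. The per-kb level of GATA4 was thus 8.08 times that of GATA6 in parental untreated cells and 4.07 times in resistant indisulam cells. GATA4 was not called between the lines, with changes of −0.04 untreated and −0.04 on the drug (SE 0.041 each, adjusted p = 0.45 and 0.36 by edgeR), and rose with indisulam by 0.24 in parental and 0.23 in resistant cells (adjusted p = 2.3e-05 and 6.6e-05 by edgeR). GATA2, a family member best known from blood cells, was lower in resistant than in parental cells, by a log2 change of −0.87 untreated (SE 0.052, adjusted p = 4.8e-13 by edgeR), and lay between 2.42 and 4.73 CPM per kb in the group means. The lncRNA GATA6-AS1, which overlaps GATA6 on the opposite strand, had 5 to 22 reads and 3.15% of the reads of the pair. The strand setting of the authors' counting is not given in the sources used here, so that reads of the pair could be shared.

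Across the 8 libraries, and among the 9091 genes with a symbol and a mean log2 CPM of at least 3, the profile of GATA6 was most like that of SSR3, a subunit of the signal sequence receptor at the translocon (Pearson's r = 0.993 of log2 CPM), and of USB1, an exonuclease that trims U6 snRNA (r = 0.988). The group means of SSR3 were 231, 278, 303 and 333 CPM without and with the drug in parental cells, then likewise in resistant cells. These are correlations over 8 libraries that fall into 4 groups and share their library preparation, and they describe the order of the groups.

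HNF4A (ENSG00000101076, chromosome 20, 44355699 to 44432845, plus strand) was at 0 in all 4 untreated libraries, at 1 and 0 reads in parental cells on the drug and at 1 and 1 in resistant cells on it. A library with 0 reads allows up to 3 reads, or 0.0278 to 0.0460 CPM at these depths, and HNF4A was therefore not detectable above that floor in any group. The related receptor HNF4G, which binds the same kind of response element, was read well. HNF4G stood at 2.37 ± 0.0144 CPM per kb off and 2.66 ± 0.103 on the drug in parental cells, and at 1.76 ± 0.0425 off and 2.32 ± 0.0488 on it in resistant cells (SD, n = 2). HNF4G was higher on indisulam than off it by 0.17 in parental and by 0.40 in resistant cells (adjusted p = 0.0069 and 3.6e-06 by edgeR). Untreated resistant cells were lower for HNF4G than untreated parental cells by a log2 change of −0.43 (adjusted p = 4.4e-07 by edgeR).

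Among the secreted members only TFF1 had more than 2 reads in a library. TFF1 (ENSG00000160182, chromosome 21, 42362282 to 42366535, minus strand) had 11 and 10 reads in parental cells off the drug and 4 and 4 on it, and 1 and 2 reads in resistant cells off the drug and 4 and 11 on it. In CPM these TFF1 levels were 0.1005 and 0.0936, 0.0534 and 0.0517, 0.0135 and 0.0308, and 0.0593 and 0.114. The resistant untreated libraries were below all others for TFF1, and resistant indisulam overlapped parental untreated. TFF1 did not pass the filter on low counts. Its ratio of resistant untreated to parental untreated was 0.222 (3 against 21 reads, 95% exact counting interval 0.0425 to 0.745), and that of resistant indisulam to resistant untreated was 4.25 (15 against 3 reads, interval 1.20 to 22.9). These intervals cover counting error alone. In a fit without the filter, in which 32.3%, 27% and 26% of 31079 genes were called for the following comparisons, TFF1 was lower in resistant than in parental untreated cells (−2.09, adjusted p = 0.025 by edgeR), its change with the drug in resistant cells was 2.00 (adjusted p = 0.057 by edgeR), and its response differed between the lines by 2.90 (adjusted p = 0.022 by edgeR).

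TFF2 (ENSG00000160181, chromosome 21, 42346357 to 42350997, minus strand) had 2 reads in resistant untreated replicate 2 and 0 in the other 7 libraries. The third trefoil gene, TFF3, was at 0 in all 8. LYZ (ENSG00000090382, chromosome 12, 69348381 to 69354234, plus strand) had 1 read in 6 libraries and 0 in parental indisulam replicate 1 and resistant indisulam replicate 1. No difference in TFF2 or LYZ was detectable at this depth.

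AGR2 (ENSG00000106541, chromosome 7, 16791811 to 16833433, minus strand) was the second member that passed the filter, and it passed through the resistant indisulam group alone, so that it had to be high there. AGR2 had 10 and 10 reads in parental cells off the drug and 4 and 9 on it, and 1 and 2 reads in resistant cells off the drug and 13 and 29 on it. The corresponding AGR2 levels were 0.0914 and 0.0936, 0.0534 and 0.116, 0.0135 and 0.0308, and 0.193 and 0.302 CPM. Resistant untreated cells were below and resistant indisulam cells above every other library, while both parental groups overlapped. Group means of AGR2 were 0.0925 ± 0.00157, 0.0848 ± 0.0444, 0.0221 ± 0.0122 and 0.247 ± 0.0769 CPM (SD, n = 2) in the order given.

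In parental cells the AGR2 change with the drug was −0.11 (SE 0.52, interval −1.19 to 0.96, adjusted p = 0.87 by edgeR), and its sign turned without parental indisulam replicate 1 (0.31). Between untreated lines the AGR2 change was −2.03 (SE 0.75, interval −3.58 to −0.47, adjusted p = 0.024 by edgeR), a ratio of 0.233 from 3 against 20 reads with an exact counting interval of 0.0444 to 0.787. This call was lost without parental untreated replicate 1 (adjusted p = 0.060), without parental untreated replicate 2 (0.064) and without resistant untreated replicate 1 (0.18).

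The comparisons that include resistant indisulam cells are taken from the fit without the filter, because AGR2 reached the filtered fit through its level in that group. In resistant cells AGR2 was higher on the drug than off it by 3.47 (SE 0.63, interval 2.23 to 4.72, adjusted p = 4.0e-07 by edgeR over 31079 genes), a ratio of 11.9 from 42 against 3 reads with a counting interval of 3.80 to 60.0. On the drug AGR2 was 1.59 higher in resistant than in parental cells (SE 0.45, interval 0.71 to 2.48, adjusted p = 0.0013 by edgeR), and its responses differed between the lines by 3.62 (SE 0.88, interval 1.89 to 5.34, adjusted p = 0.00026 by edgeR). Without the filter 30.1% of all genes were called for the drug in parental cells and 37.5% between the lines on the drug, beside the shares given for TFF1. In the filtered fit these AGR2 changes were 3.48, 1.57 and 3.60, with larger adjusted p-values (5.0e-05, 0.0028 and 0.0013 by edgeR). The change between the lines on the drug was then not called without parental indisulam replicate 1 (1.15) or without resistant indisulam replicate 2 (1.17).

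AGR2 is 1 of 4597 tested genes with a mean below 1 CPM. Of these, 18.7% were called higher and 6.16% lower on the drug in resistant cells, 16.6% higher and 18.9% lower in resistant than parental untreated cells, 35.6% higher and 8.38% lower between the lines on the drug, and 21.3% higher and 1.61% lower for the difference between the responses, whose median over these genes was 0.51. Reads of 573 genes of 4 families not expected in epithelial cells (olfactory and bitter taste receptors, keratin-associated proteins and beta-defensins), a list chosen after the values were seen, summed to 4.81 and 4.88 CPM off and 3.85 and 4.17 on the drug in parental cells, and to 3.11 and 3.30 off and 3.62 and 3.92 on it in resistant cells. They too were lowest in the resistant untreated libraries, where AGR2 and TFF1 were lowest, and their part in those results was not tested. Reads that mapped outside any annotated gene were, of assigned and unassigned reads, 6.22% and 6.34% off and 4.82% and 4.94% on the drug in parental cells, and 4.72% and 5.41% off and 6.16% and 6.21% on it in resistant cells.

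The relatives of AGR2 did not share its levels. AGR3, its neighbour on chromosome 7, was at 0 in all libraries, and TXNDC12, a more widely expressed isomerase of the same family, was at 3.43 to 4.92 CPM per kb in the group means, where AGR2 was at 0.00801 to 0.0894 CPM per kb. TXNDC12 rose with the drug by 0.20 in parental and 0.23 in resistant cells (adjusted p = 0.0033 and 0.0036 by edgeR) and was lower in resistant than in parental cells off the drug, by a log2 change of −0.32 (adjusted p = 7.0e-05 by edgeR). By the same measure as for GATA6, the profile most like that of AGR2 was that of RASSF1, which regulates microtubules and the cell cycle (r = 0.965 over 8 libraries), followed by CLK1, a kinase of splicing factors (r = 0.9503). CLK1 had group means of 40.8, 40.5, 36.2 and 45.5 CPM without and with the drug in parental cells, then likewise in resistant cells, a far smaller range than that of AGR2.

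None of the adhesion and junction members passed the filter, and neither CEACAM5 nor CEACAM6 was called in any comparison when the filter was dropped. CEACAM5 (ENSG00000105388, chromosome 19, 41708585 to 41730433, plus strand) had 2 and 0 reads in parental cells off the drug and 1 and 1 on it, and 0 and 0 reads in resistant cells off the drug and 4 and 0 on it. CEACAM6 (ENSG00000086548, chromosome 19, 41750977 to 41772211, plus strand) had 3 and 3, 1 and 1, 1 and 0, and 0 and 1 reads in the same order. CLDN18 (ENSG00000066405, chromosome 3, 137998735 to 138033655, plus strand) was at 0 in all 8 libraries. These genes belong to families whose members resemble each other in sequence, so that single reads may be shared with relatives.

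Their relatives were read in the same cells. CEACAM1, a wider-ranging member of the family, had 6 and 6 reads off and 1 and 2 on the drug in parental cells, and 43 and 25 off and 26 and 43 on it in resistant cells. CEACAM1 was higher in resistant cells by 3.10 untreated (SE 0.37, adjusted p = 1.1e-07 by edgeR) and by 4.32 on the drug (SE 0.52, adjusted p = 8.6e-08 by edgeR). It passed the filter on low counts through the resistant libraries alone, so that it had to be high there. The neighbouring CEACAM7 was at 0 in all libraries. Among claudins, CLDN4, a common component of epithelial tight junctions, was at 57.6 to 82.8 CPM per kb in the group means, and rose with the drug by 0.36 in parental and 0.52 in resistant cells (adjusted p = 4.4e-10 and 7.4e-13 by edgeR). CLDN1 was higher in resistant cells by 2.33 untreated and 3.66 on the drug (SE 0.20 and 0.17, adjusted p = 4.0e-10 and 2.6e-15 by edgeR). Of the 38 relatives of the 9 genes, 14 were at 0 in all libraries and 16 were tested. With the drug 6 of the 16 rose and 2 fell in parental cells (median 0.14 against 0.014 over all tested genes, of which 31.6% rose and 26.6% fell), and 10 rose and 1 fell in resistant cells (median 0.23 against 0.0093, with 24.9% of all genes rising and 25.8% falling). CLDN6, counted among the 10, passed the filter through resistant indisulam cells alone, so that it had to be high there. Between untreated lines 6 were higher and 7 lower in resistant cells (median −0.07 against −0.015, with 30.3% of all genes higher and 29.9% lower). On the drug 7 were higher and 5 lower (median 0.16 against 0.0032, with 34.6% and 34.9%). CLDN12 was lower in resistant cells, by a log2 change of −0.64 untreated and −0.27 on the drug.

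The 9 markers were set beside other genes of the same and of the opposite programme. Of the 9 genes 2 (22.2%) passed the filter, as did 11 of 32 other classical signature genes (34.4%), 15 of 22 endoderm transcription factors (68.2%) and 19 of 25 basal-like signature genes (76%), against 12497 of all 19920 protein-coding genes (62.7%). Levels summed over the 9 markers were 2.84 to 6.49 CPM, over the other classical genes 456 to 579 CPM, and over the basal-like genes 1670 to 2677 CPM. These sums depend on the size of each list and on single genes. Among the basal-like genes KRT7, a keratin, alone averaged 1163 CPM, while 6 of the 25 never had more than 4 reads. Among the other classical genes GPRC5A, a retinoic acid-induced receptor, alone averaged 307 CPM and ERBB3, a receptor tyrosine kinase, 113 CPM. The endoderm factors that were read included FOXA1, a pioneer factor (7.33 to 10.0 CPM in the group means).

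**Figure D3:**
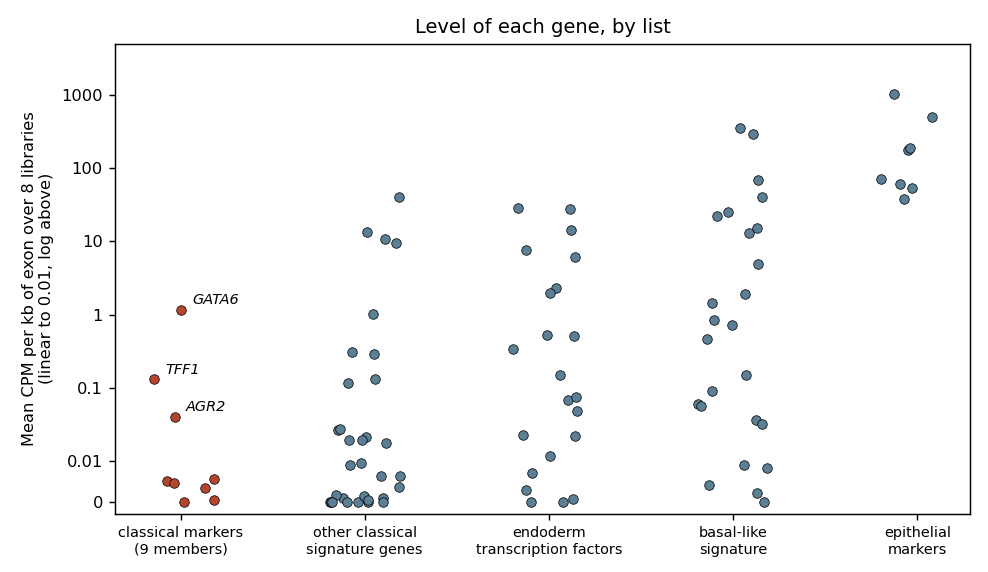
Mean level over the 8 libraries in CPM per kb of exon for every gene of 5 lists, with 1 point per gene; the vertical axis is linear up to 0.01 and logarithmic above, and points are spread sideways for legibility. GATA6 at 1.16 CPM per kb is the highest of the 9 classical markers, and the 8 epithelial markers lie well above it.

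Other classical signature genes changed in both directions, as did all genes: of all tested genes 31.6% rose and 26.6% fell with the drug in parental cells, 24.9% rose and 25.8% fell with it in resistant cells, 30.3% were higher and 29.9% lower in resistant than parental cells off the drug, and 34.6% were higher and 34.9% lower on it. With library totals in place of TMM, 42.0% rather than 54.3% of the called genes were higher for the drug in parental cells, and 59.7% rather than 49.1% in resistant cells. With the drug in parental cells 3 of the 11 tested rose, 4 fell and 4 were not called, with a median change of −0.12 against 0.014 over all tested genes. MUC13, a membrane mucin, rose by 1.85 (SE 0.25) and CAPN8, a calpain of gastric epithelium, fell by 0.81 on the log2 scale (SE 0.25). In resistant cells 7 rose and 1 fell on the drug, with a median of 0.56 against 0.0093. Among them ELF3, an epithelial ETS factor, rose by 1.32 (SE 0.084) and MUC13 by 1.77 (SE 0.28), and FOXQ1, a forkhead factor, was lower by a log2 change of −0.80 (SE 0.046). MYO1A, counted among the 7 that rose, passed the filter only with the help of the resistant indisulam libraries, where its level was highest.

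Between untreated lines 5 of these 11 genes were higher and 4 lower in resistant cells, with a median of −0.01 against −0.015. CAPN8 was 2.16 higher (SE 0.16), FOXQ1 1.33 higher (SE 0.047) and ELF3 lower by a change of −0.82 (SE 0.085). On the drug 7 were higher and 2 lower, with a median of 0.57 against 0.0032. SDR16C5, a retinol dehydrogenase, had 0 reads in both parental untreated libraries and 6 and 8 in resistant untreated ones. It passed the filter through resistant indisulam cells alone. MYO1A, counted among the genes higher on the drug, also needed those cells to pass the filter.

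Transcription factors of endoderm were also counted. Of 15 tested, 5 rose and 2 fell with the drug in parental cells (median 0.05 against 0.014) and 9 rose and 2 fell in resistant cells (median 0.33 against 0.0093). Of all tested genes 31.6% rose and 26.6% fell in parental cells, and 24.9% rose and 25.8% fell in resistant cells. Resistant cells were higher for 8 and lower for 3 untreated (median 0.27 against −0.015), and higher for 9 and lower for 3 on the drug (median 0.44 against 0.0032). The shares of all tested genes were 30.3% higher and 29.9% lower untreated, and 34.6% higher and 34.9% lower on the drug. CREB3L1, a membrane-bound factor of the secretory pathway, was 3.84 higher untreated and 4.91 higher on the drug in resistant cells (SE 0.29 and 0.30). CREB3L1 had 3 to 7 reads in parental libraries and passed the filter through the resistant libraries alone, so that it had to be high there. The same held for FOXA3, with 5 to 8 reads in parental libraries. FOXA3 is counted among the genes higher in resistant cells, off and on the drug, and among those that rose with the drug in resistant cells.

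Basal-like genes were more often higher than lower in the resistant line. Of 19 tested basal-like genes 13 were higher and 3 lower in untreated resistant cells (median 0.63 against −0.015), and 14 were higher and 2 lower on the drug (median 0.86 against 0.0032). Among all tested genes 30.3% were higher and 29.9% lower untreated, and 34.6% higher and 34.9% lower on the drug. SERPINB3 and SERPINB4, counted among those higher untreated, passed the filter through the resistant libraries alone, so that they had to be high there. KRT17, a keratin of basal epithelium, had group means of 0.411, 0.335, 2.63 and 13.8 CPM without and with the drug in parental cells, then likewise in resistant cells, and its resistant to parental change was 2.67 untreated and 5.36 on the drug (SE 0.14 and 0.12). VGLL1, a coactivator of TEAD factors, was 3.88 higher untreated and 4.14 higher on the drug (SE 0.070 and 0.064). The 3 genes lower in untreated resistant cells were DHRS9 (−1.66), FGFBP1 (−1.41) and UCA1. The group means of UCA1 were 418 and 333 CPM without and with the drug in parental cells, and 209 and 179 CPM in resistant cells. The 2 genes lower on the drug were UCA1 (−0.89) and FGFBP1 (−0.72). GATA6 was thus higher in the same line in which most of the tested basal-like genes were higher. With the drug, 6 basal-like genes rose and 3 fell in parental cells (median 0.08 against 0.014) and 9 rose and 2 fell in resistant cells (median 0.19 against 0.0093), beside the shares of all genes given for the classical signature genes.

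**Figure D4:**
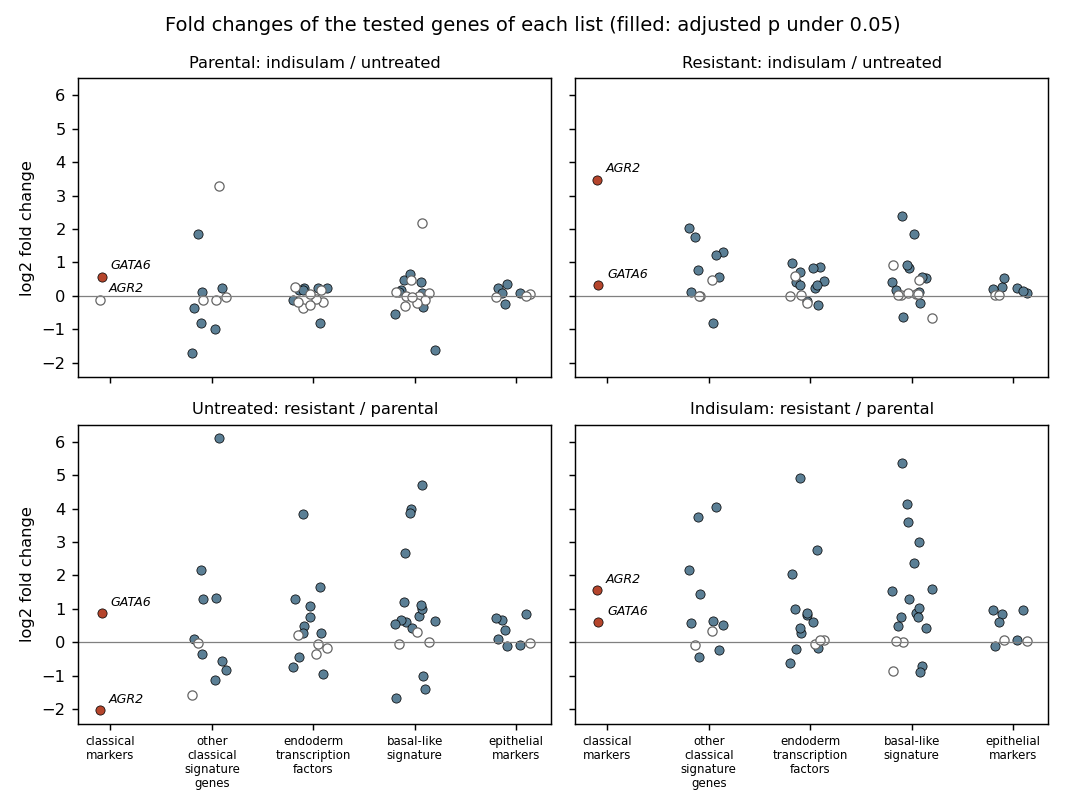
Fold changes on the log2 scale in 4 comparisons for every tested gene of 5 lists, with 1 point per gene, filled where adjusted p by edgeR was under 0.05 and open otherwise, and points spread sideways for legibility. GATA6 lies above 0 in all 4 panels, AGR2 lies below 0 between untreated lines at −2.03, and the point at 6.10 is SDR16C5, whose fitted value depends on the prior count because parental untreated cells had no read of it.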

How the data were processed

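PolyA-selected, stranded RNA libraries of Panc10.05 cells were sequenced, and reads were trimmed with SeqPurge and aligned to GRCh38 with HISAT2 2.2.1 by the authors. The deposited values are raw read counts per Ensembl gene, 1 table per library, from which the authors left out duplicates and reads of low mapping quality. Picard and HTSeq are named in the submitters' processing notes without a role, and the annotation release and strand setting are not given in the sources used here. The 9 lines of each table that name no gene held 37.9% to 44.9% of all reads listed and were left out of library sizes and tests. Libraries held 65266253 to 108002436 reads in genes, and reads of 0 allow up to 3.

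Samples were grouped by title, treatment and phenotype labels. Counts were fitted in R 4.3.3 with edgeR 4.0.16 (filterByExpr with a minimum of 10 reads, which amounts to 0.1269 CPM in at least 2 libraries; TMM; robust glmQLFit over all 8 libraries and 4 group means), adjusted by Benjamini and Hochberg over all 16661 genes tested and called at an adjusted p under 0.05. 2 of the 9 markers were tested. Exact permutation of 2 against 2 libraries cannot give less than p = 0.333, so that single values were not tested. Symbols and coordinates came from GENCODE 44, which matched 60419 of the 60675 identifiers, and promoters from a RefSeq table.

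Alternatives were DESeq2 1.42.0, its size factors, library totals, no filter, a mean of at least 1 CPM, only the compared groups, a replicate block, glmTreat against 0.5 log2 units and each library left out. Replicate numbers did not pair libraries: the correlations of deviations between groups with the same number were −0.058 to 0.027. Named genes were the 9 markers, overlapping genes, close relatives, up to 3 called genes with the largest change in each direction per list and comparison, and the 2 genes with the most similar profile; GPRC5A, ERBB3, FOXA1 and GATA2 levels were added after values were seen. Not every gene so named is printed, and some items are not reported here. Markers and lists were chosen with earlier results of these data known.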

Additional observations from a re-analysis of the deposited data

Results flagged for a closer look

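Of 46 named genes tested for a difference of the indisulam responses between the lines, 27 passed the threshold (edgeR, adjusted p under 0.05), against 50.1% of all genes tested, and all values below are resistant minus parental on the log2 scale. The responses also differ in exposure, 18 h in parental cells and continuous culture against a week of withdrawal in resistant cells. Among the 9 classical markers AGR2 did so at 3.60, from at most 29 reads per library, having been tested only through the resistant indisulam group in which it was high (3.62 in the fit without the filter). Among other classical signature genes the difference was 3.76 for MYO1A (at most 14 reads per library, 2.71 without resistant untreated replicate 1, and with no interpretable size without replicate 2 of that group, which leaves it at 0 reads), 1.58 for CAPN8, 1.46 for TMEM45B, 1.34 for ELF3 and 0.32 for GPRC5A, and −0.68 for FOXQ1 and −0.11 for PLS1. Endoderm transcription factors differed by 1.12 (MYRF), 0.94 (NR5A2) and 0.23 (HNF4G), and by −0.44 (PPARG), −0.22 (EHF) and −0.21 (SOX9). Basal-like genes differed by 2.69 (KRT17), 2.06 (LY6D), 0.98 (KRT15), 0.69 (FGFBP1) and 0.11 (UCA1), and by −0.62 (CST6), −0.47 (AREG) and −0.37 (SLC2A1). Of these, LY6D was tested only through the resistant indisulam group, in which it was high. MYO1A, among the other classical genes, passed the filter only with the help of that group, in which its level was highest. Relatives of the markers differed by 1.33 (CLDN1), 0.73 (CLDN3), 0.37 (CLDN12), 0.28 (GATA2) and 0.16 (CLDN4).

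With 1 library left out, 4 of these differences were no longer called in some fits. PLS1 was lost whichever library was left out (−0.12 to −0.067). TMEM45B was lost without resistant indisulam replicate 2 (1.12). NR5A2 was lost without either parental indisulam library, parental untreated replicate 1, resistant indisulam replicate 2 or resistant untreated replicate 1 (0.77 to 1.01). LY6D was lost without either parental untreated library, parental indisulam replicate 2, resistant indisulam replicate 1 or resistant untreated replicate 2 (1.44 to 2.14), and was 3.23 without parental indisulam replicate 1.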

How the results depend on the processing

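GATA6 kept its direction under all alternatives run in each comparison, and kept its call under all but glmTreat for the drug in either line and for the lines on the drug; the difference of its responses, not called, was called without parental indisulam replicate 2. The number of the 9 markers called was 1 for the drug in parental cells, 2 each for the drug in resistant cells, for the untreated lines and for the lines on the drug, and 1 for the difference of the responses. Against 0.5 log2 units (glmTreat) it was 0, 1, 1 and 1 for the first 4, with 1042, 879, 2582 and 3509 of all genes called, and 908 for the difference. Requiring a mean of at least 1 CPM left 1 marker in each of the comparisons that had 2 and 0 for the difference, because AGR2 was then not tested. DESeq2 left 1 marker for the untreated lines and 1 for the lines on the drug, where the adjusted p of AGR2 was 0.0999 and 0.070, and gave AGR2 no adjusted p for the drug in resistant cells and for the difference. Fitting only the compared groups left 1 for the untreated lines, where AGR2 was not tested, and no filter gave 2 for the difference, TFF1 being added. Leaving out 1 library gave 1 to 2 for the untreated lines, 1 to 2 for the lines on the drug and 1 to 2 for the difference. The AGR2 response in parental cells ran from −0.80 to 0.31 with 1 library left out and reversed to the latter without parental indisulam replicate 1, and the PLS1 difference to 0.0069 with library totals alone, which moved the median difference of all genes by 0.12. With library totals 65.8% of the genes called for the difference were higher, against 45.2% with TMM. With the replicate number as a block, 9537, 8319, 9865, 11472 and 8206 genes were called, against 9690, 8446, 10021, 11579 and 8351 without it, and no call of GATA6 or AGR2 changed. The other 7 markers had at most 11 reads in any library and did not pass the filter.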
